A study of Mus musculus with 12 samples.

Results

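J1 mouse embryonic stem cells (ESCs) carrying a lentiviral short hairpin RNA against Ino80 (shIno80) were compared at day 6 and day 4 after infection. The comparison used 4 of the 12 arrays of the series, chosen by the titles of the columns in the deposited value table: 2 arrays of shIno80 cells at day 6 and 2 of shIno80 cells at day 4. J1 is an established mouse ESC line. The other 8 arrays held shIno80 cells at day 2 and cells with a non-targeting hairpin (shNT) at days 2, 4 and 6, with 2 arrays for each hairpin and day. The 3 days stand for 48, 96 and 144 hours, and cells of all 6 groups received a lentivirus and a hairpin, so neither hairpin group is an untreated culture. The series design calls this step an infection, whereas the sample labels speak of transfection. No label gives the sequence of the hairpin, a selection step or a clone. The series design speaks of biological replicates, and nothing more is said on how the cultures behind the 2 arrays of a group relate. The p-values therefore cover the spread between these samples alone, and that spread may be technical.

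INO80 is a chromatin remodeller, a complex that uses ATP to slide nucleosomes and to exchange histone variants, and Ino80 is its catalytic subunit. Mouse ESCs keep their state through a network of transcription factors built on Pou5f1, Sox2 and Nanog and supported by Esrrb, Klf4 and Tbx3. In mouse ESCs INO80 is known to occupy regulatory regions of such genes. ESCs that leave this state can switch on genes of the embryonic lineages or, less often, genes of trophoblast, the outer layer of the blastocyst that builds the placenta and carries the keratins of a simple epithelium.

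Levels are given as log2 of the processed intensity of a probe minus log2 of the 75th percentile of its array, so a level of 0 equals that percentile and a change of 1 is a doubling. The 75th percentile lay between 1154.8 and 1604 intensity units on the 12 arrays. The share of probes well above background ranged over 61.85% to 69.15%. A total of 19183 genes passed the filter on dim probes, of which 15001 had a gene name. All arrays of a day shared 1 slide and 1 scan, so day and slide cannot be told apart in the change within shIno80 cells. The shNT arrays of the same slides are therefore given beside it, together with the difference of both changes, in which an additive effect of the slide cancels. In each day the scanner files at slide positions 2 and 3 are attached to samples of the opposite hairpin, compared with the columns of the value table. Replicate 1 of shIno80 was one of the 2 exchanged arrays on both days, and replicate 2 was placed alike by both records. The groups here follow the value table. Under it, Ino80 read -0.19 and 0.03 on the shIno80 day 6 arrays and -0.28 and 0.13 on the shIno80 day 4 arrays, against 1.89 and 2.06 on the shNT day 6 arrays and 2.27 and 2.16 on the shNT day 4 arrays. All 4 shIno80 arrays lay below all 4 shNT arrays of these days, and Ino80 changed by -0.01 ± 0.16 (SE) between day 6 and day 4 in shIno80 cells, with an adjusted p of 0.977. Arrays of the same group correlated at 0.9916 to 0.9946 over all genes kept, above every pair from different groups (up to 0.9879). With the samples as the scanner files are attached, 3 genes were higher and 19 lower at day 6, with 3055 genes at an unadjusted p under 0.05, and no member of any gene list below passed.

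Between day 6 and day 4, 1663 genes were higher (8.67% of the genes tested) and 3008 were lower (15.7%) in shIno80 cells, at an adjusted p under 0.05 by limma with Benjamini-Hochberg adjustment over all genes. These 4671 genes were 24.3% of the genes tested. Changes of at least 2-fold were carried by 538 of the genes that were higher and 794 of those that were lower. The day 6 and day 4 arrays did not overlap for 72.9% of genes, so a lack of overlap, given below for single genes, does not set a gene apart. The median SD between the 2 arrays of a group was 0.118. The median change of all genes was -0.15. The balance of the directions depended on the scaling: 35.6% of the calls were higher with the 75th percentile, 49.6% with the median of each array, 43.8% with quantile normalization and 72.3% in the deposited value table, which moved the median of all genes to 0.06. Of the 1663 genes called higher, 1490 were also called higher with median scaling and 1647 in the value table, and of the 3008 called lower, 1598 and 1263 were also called lower there. Small decreases are therefore read against the median of all genes in what follows. The counts of each list below are likewise to be read beside the 8.67% of all genes that were higher and the 15.7% that were lower. Leaving out 1 array lowered the calls to 972 higher and 1704 lower without day 6 replicate 1, 565 and 629 without day 6 replicate 2, 727 and 1081 without day 4 replicate 1, and 649 and 966 without day 4 replicate 2. On replicate 2 alone, the arrays on which both records agree, the median change of all genes was -0.18.

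**Figure D1:**
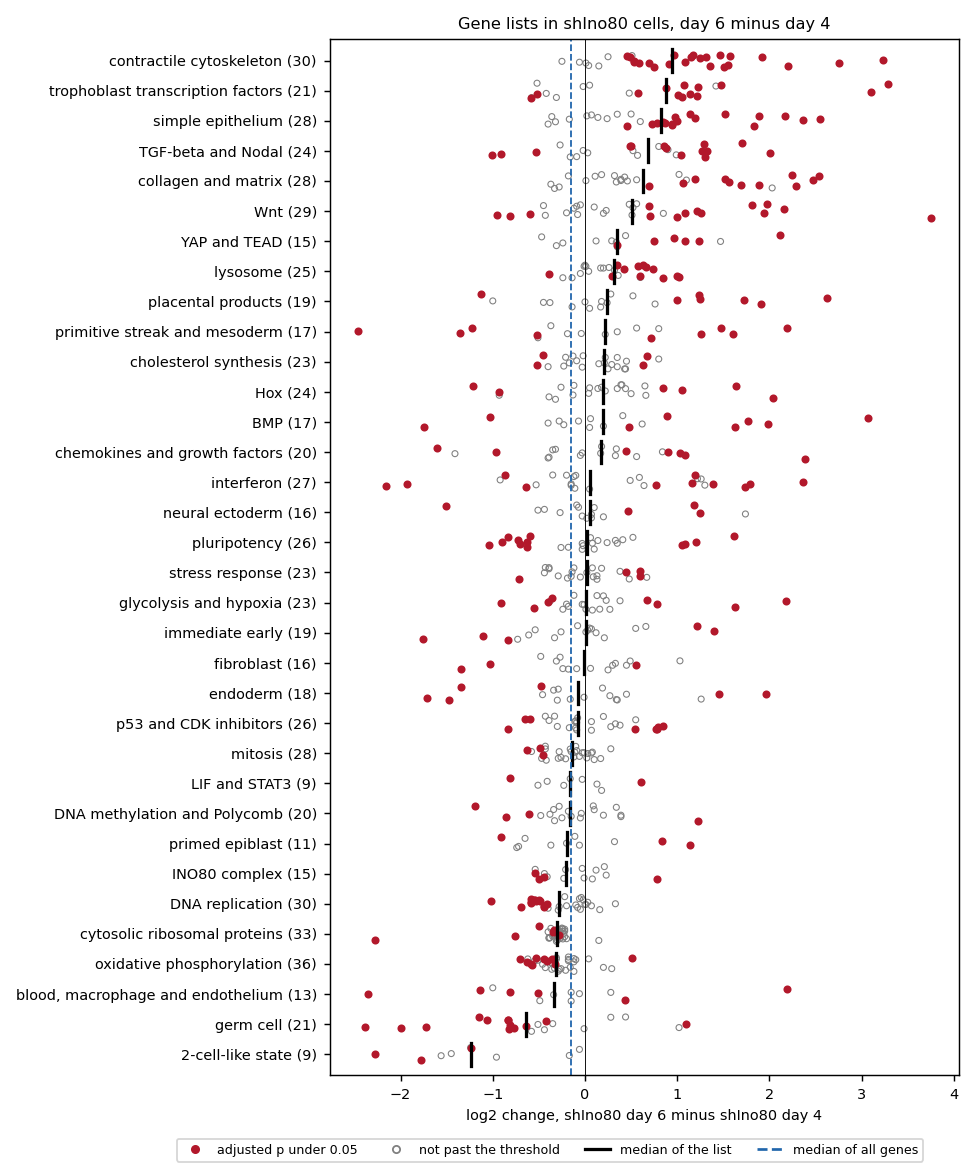
Log2 change in shIno80 cells, day 6 minus day 4 (horizontal axis), for each measured member of 34 gene lists (rows, with the number of members measured), ordered by list median. Filled points passed an adjusted p of 0.05, open points did not, black bars are list medians and the dashed line is the median of all genes at -0.15. Contractile, trophoblast factor and simple epithelium genes had the highest medians (0.94, 0.88 and 0.82), and germ cell and 2-cell-like genes the lowest (-0.64 and -1.24). The row of p53 and CDK inhibitors also holds D-type cyclins, and the row of the INO80 complex holds Actr6, which is not an INO80 subunit.

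The largest rises were sought among genes with a gene name, leaving out clone, RIKEN and accession names, whose probe was well above background on both arrays of the brighter day. They included secreted and membrane proteins, a Wnt inhibitor and homeobox factors. Vnn1, a membrane-anchored pantetheinase, read -0.94 and -0.72 at day 6 and -6.37 and -6.64 at day 4. It was not well above background on either day 4 array and was at least 36.8-fold higher at day 6 (adjusted p = 0.000161). Ddn, which codes for dendrin, a cytoskeletal protein of neurons and kidney podocytes, read 0.98 and 0.59 at day 6, against -3.12 and -3.27 at day 4 (log2 change 3.98 ± 0.19, adjusted p = 4.92e-05). Both genes were thus low on both day 4 arrays and far higher on both day 6 arrays. Tmprss2, an epithelial serine protease, read 0.47 and 0.52 at day 6 and -3.24 and -2.96 at day 4 (3.59 ± 0.37, adjusted p = 0.000818). Pmp22, a myelin and epithelial junction protein, read 1.66 and 1.69 at day 6 and -1.82 and -1.72 at day 4 (3.45 ± 0.20, adjusted p = 9.1e-05). Both genes were separated between the days on all 4 arrays, as were 72.9% of all genes. The other rises of this size were those of Dkk1, Cryab, Dlx3 and Esx1, described below, and those of dim probes. Olr1, a lectin-like receptor for oxidised lipoprotein, and S100a7a, an S100 calcium-binding protein, were at least 2.28-fold and 4.14-fold higher against day 4 arrays that were not well above background. Elmod1 read -3.24 and -0.01 at day 6 and the olfactory receptor gene Olfr551 read -4.47 and -1.73, so that for both the 2 day 6 arrays lay far apart, although each lay above both day 4 arrays.

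The largest falls, by the same conditions, were mostly falls to background. Pappa2, a protease that cleaves insulin-like growth factor binding proteins and is abundant in placenta, read -8.05 and -7.85 at day 6, where no array was well above background, against -4.39 and -3.52 at day 4, and was at least 3.75-fold lower at day 6 (adjusted p = 0.000172). Prl8a8, a placental member of the prolactin family, read -6.90 and -8.00 at day 6 and -3.64 and -4.53 at day 4 and was at least 3.43-fold lower (adjusted p = 0.0101). At day 2 neither gene had been well above background in shIno80 cells, so both were detected at day 4 alone. Avil, the actin-binding protein advillin, was at least 5.89-fold lower, Vwa3b at least 5.05-fold lower, Ocm, the calcium-binding protein oncomodulin, at least 4.07-fold lower, and the posterior homeobox gene Cdx4 at least 2.98-fold lower. Mmrn2, a glycoprotein known from endothelial matrix, stayed well above background throughout and read -0.02 and 0.15 at day 6, against 2.58 and 2.71 at day 4 (-2.58 ± 0.16, adjusted p = 0.000116), and fell by 0.98 in shNT cells. Neurod2, Olfr1351, Olfr104-ps, Stfa2l1 and Spin2d completed the 12 largest falls under these conditions. Of these, Neurod2 read -5.46 and -2.35, Olfr1351 -6.04 and -2.46 and Olfr104-ps -5.52 and -3.52 on the 2 day 4 arrays, so that 1 array carried most of the day 4 level.

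Genes of the actin cytoskeleton and of smooth and striated muscle formed the list with the highest median. Of 30 members measured, 23 rose and 0 fell at day 6, and the list median was 0.94, against -0.15 for all genes. Cryab, a small heat shock protein that binds desmin and actin filaments, read 4.69 and 4.72 at day 6 and 1.53 and 1.43 at day 4 (3.23 ± 0.17, adjusted p = 5.96e-05). Acta1, skeletal muscle alpha-actin, read 2.16 and 2.55 at day 6 and -0.46 and -0.36 at day 4 (2.76 ± 0.35, adjusted p = 0.00194). Limch1, an activator of non-muscle myosin, read 0.12 and -0.15 at day 6 and -1.96 and -2.47 at day 4 (2.20 ± 0.19, adjusted p = 0.00042). In none of the 3 genes did the arrays of both days overlap, which holds for 72.9% of all genes. The other 20 members that rose had log2 changes from 0.46 for Actg2 to 1.92 for the cardiac actin Actc1 and included the tropomyosins Tpm1 (1.25), Tpm2 (1.46) and Tpm4 (0.53), the calponins Cnn1 (0.97), Cnn2 (1.17) and Cnn3 (0.53), transgelin Tagln (1.08) and vinculin Vcl (1.15). The 7 members that did not pass were Zyx (0.51), Flna (0.25), Actn4 (0.15), Myl6 (0.04), Srf (0.01), Myl9 (-0.06) and Synpo2l (-0.25). The count was between 23 and 26 with the 3 other scalings. It was 13 without day 6 replicate 2, and 14 each without day 4 replicate 1 or day 4 replicate 2. On replicate 2 alone the list median was 0.95. In shNT cells 10 members rose and 1 fell between the same slides, where 7.75% of all genes were higher and 9.03% lower, and the rise was larger in shIno80 cells, by the test of the difference, for Cryab, Limch1, Actc1, Lmod1 and Flnc.

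Many of these genes are known targets of serum response factor, which binds the CArG box, a pair of C, 6 bases that are each A or T, and a pair of G. The box was sought in the 250 bases before the start of each gene in the RefSeq promoters of build GRCm38.p6; it reads as the same pattern on both strands. Of the 30 contractile genes 26 had an entry, and 7 of these held a box in at least 1 entry. Of all 32851 promoter entries 1.47% held a box (482). This share is counted by entry and not by gene, so the 2 counts differ in unit. The list was drawn up in part from known targets of this factor, so the count is not independent of the choice. Among the contractile genes with an entry, the box was present in 4 of 19 that rose and in 3 of 7 that did not pass. The 250 bases before the start of the 4 genes that rose and held a box are printed below, 5′ to 3′ on the strand of the gene and with the box in capitals, since these are the members that combine the rise with the motif. A match describes the sequence and shows no binding.
Acta1 (chr8:123894776-123895025, minus strand): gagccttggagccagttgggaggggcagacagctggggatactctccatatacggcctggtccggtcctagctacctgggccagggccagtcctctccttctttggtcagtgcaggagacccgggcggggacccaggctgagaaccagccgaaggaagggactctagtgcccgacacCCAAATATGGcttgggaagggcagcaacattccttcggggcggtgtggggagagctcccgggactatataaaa
Actc1 (chr2:114052876-114053125, minus strand): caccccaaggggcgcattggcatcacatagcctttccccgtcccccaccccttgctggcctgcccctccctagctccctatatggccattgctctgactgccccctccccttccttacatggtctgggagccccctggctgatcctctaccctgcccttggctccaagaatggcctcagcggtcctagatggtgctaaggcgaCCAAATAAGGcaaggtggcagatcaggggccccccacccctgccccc
Cnn2 (chr10:79988350-79988599, plus strand): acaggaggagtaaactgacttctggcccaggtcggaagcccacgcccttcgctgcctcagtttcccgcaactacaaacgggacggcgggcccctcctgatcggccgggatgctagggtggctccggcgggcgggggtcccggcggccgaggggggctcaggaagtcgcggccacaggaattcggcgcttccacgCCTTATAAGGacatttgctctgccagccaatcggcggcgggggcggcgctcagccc
Vcl (chr14:20929148-20929397, plus strand): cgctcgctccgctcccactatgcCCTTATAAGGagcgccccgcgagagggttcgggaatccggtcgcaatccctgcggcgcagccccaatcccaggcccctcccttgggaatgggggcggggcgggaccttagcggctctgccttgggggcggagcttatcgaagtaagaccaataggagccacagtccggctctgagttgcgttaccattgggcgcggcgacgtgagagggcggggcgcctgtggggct
The box began 73 bases before the start in Acta1, 47 in Actc1, 56 in Cnn2 and 227 in Vcl. These 4 genes changed by 2.76, 1.92, 1.17 and 1.15.

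Keratins, desmosomal proteins and claudins of simple epithelia also rose, with 17 of 28 members measured higher, 0 lower and a median of 0.82. Krt7, a keratin of ducts and trophoblast, read 4.95 and 5.08 at day 6 and 2.42 and 2.50 at day 4 (2.55 ± 0.25, adjusted p = 0.000657). Krt8, the keratin of the earliest embryonic epithelium, read 7.58 and 7.60 at day 6 and 5.36 and 5.49 at day 4 (2.17 ± 0.20, adjusted p = 0.000494). Dsc2, the desmosomal cadherin desmocollin 2, read -0.68 and -0.47 at day 6 and -2.95 and -2.92 at day 4 (2.36 ± 0.32, adjusted p = 0.00242). All 3 genes had already been higher at day 4 than at day 2 and continued upwards. Further members that rose included Krt19 (1.83), Krt18 (1.52), Lgals3 (1.19), Cldn6 (1.14), Dsp (1.00), Spint1 (0.98), Cldn3 (0.94), Cldn4 (0.94), Cldn7 (0.87), Jup (0.85), Dsg2 (0.78), Ocln (0.73) and Tjp3 (0.46). The markers of ESC epithelium Cdh1, E-cadherin, and Epcam did not pass, with changes of 0.02 and -0.36. The count was between 17 and 21 with the other scalings, and 11 without day 6 replicate 2 or without day 4 replicate 2. On replicate 2 alone the median was 0.88. In shNT cells 9 members rose and 0 fell between the same slides, and the rise was larger in shIno80 cells for Krt19, Lgals3 and Spint1 by the test of the difference.

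**Figure D2:**
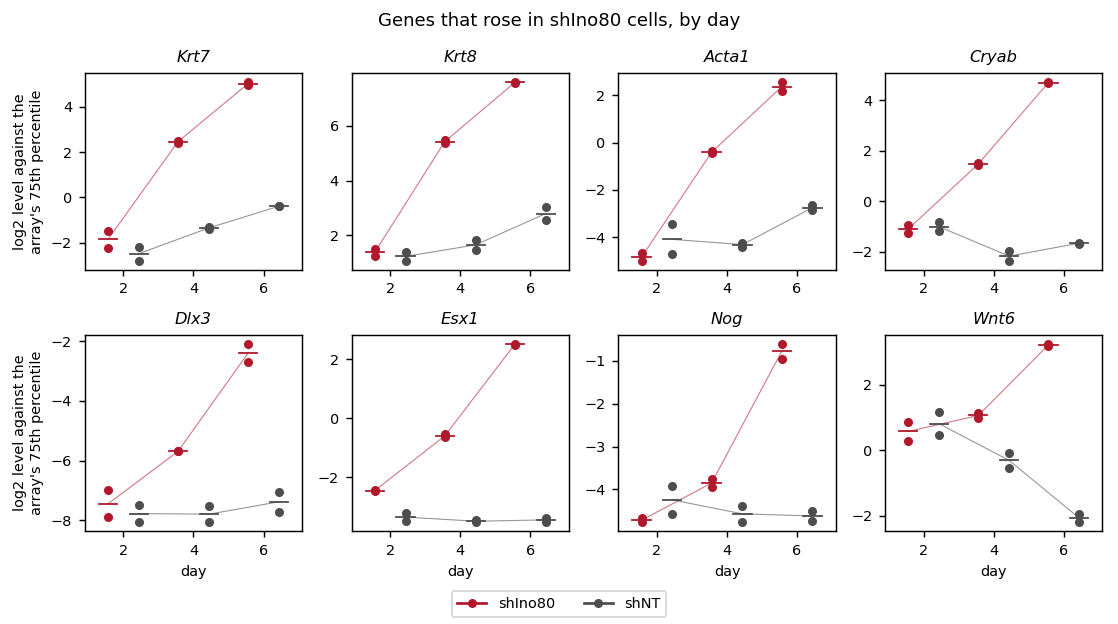
Level of 8 genes (log2 against the array's 75th percentile, vertical axes) at days 2, 4 and 6 on each array of shIno80 cells (red, left of each pair) and shNT cells (grey, right), with bars at the group means. Krt7 and Krt8 rose at each step in shIno80 cells, Nog, Dlx3 and Esx1 rose more between days 4 and 6 than between days 2 and 4, and Wnt6 rose in shIno80 cells to 3.26 and 3.19 at day 6 while it was at -1.94 and -2.20 in shNT cells.

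Transcription factors of the trophoblast lineage were the list with the second-highest median, 0.88, with 11 of 21 members measured higher and 2 lower. Dlx3, a homeobox factor needed for placental labyrinth formation, read -2.71 and -2.09 at day 6 and -5.69 and -5.69 at day 4, where 1 of the 2 arrays was well above background (3.29 ± 0.38, adjusted p = 0.00127). Esx1, an X-linked homeobox gene of extraembryonic tissue, read 2.49 and 2.52 at day 6 and -0.55 and -0.65 at day 4 (3.1 ± 0.11, adjusted p = 1.52e-05). Vgll1, a cofactor of TEAD proteins, read -2.26 and -2.10 at day 6 and -3.75 and -3.57 at day 4 (1.48 ± 0.19, adjusted p = 0.00186). In shNT cells the 3 genes changed by 0.41, 0.04 and 0.25 between the same slides, none of them past the threshold, with Dlx3 and Vgll1 not well above background there, and all 3 differences of changes passed. The other members that rose were Bhlhe40 (1.23), Hand1 (1.21), Tead4 (1.14), Gata3 (1.07), Msx2 (1.05), Tfap2a (1.01), Gata2 (0.88) and Ets2 (0.57). Cdx2, the factor that starts the trophectoderm programme, read 0.40 and 0.29 at day 6 and -1.07 and -1.09 at day 4. The arrays of the 2 days did not overlap, but its change of 1.42 ± 0.50 did not pass (adjusted p = 0.0714). The spread behind this test was estimated over all 6 groups. At day 2 Cdx2 read -6.0 and -5.20 in shIno80 cells. Eomes and Ovol2 fell by 0.52 and 0.59, and in the deposited value table neither was called. The number called higher was between 10 and 13 with the other scalings and 6 or 7 whichever of the 4 arrays was left out. On replicate 2 alone the median was 0.77.

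Of 38 products of differentiated placental cells 19 passed the filter on dim probes, 6 of which rose and 1 fell, with a median of 0.24. Ppbp, a chemokine stored in platelet granules and also made in placenta, read -1.34 and -1.47 at day 6 and -4.40 and -3.67 at day 4 (2.63 ± 0.33, adjusted p = 0.00173). The imprinted gene Igf2, a fetal and placental growth factor, read 3.17 and 3.30 at day 6 and 1.21 and 1.43 at day 4 (1.91 ± 0.31, adjusted p = 0.00544). Peg10, an imprinted retroelement-derived gene needed in placenta, read -1.25 and -1.13 at day 6 and -2.65 and -3.18 at day 4 (1.72 ± 0.25, adjusted p = 0.00335). Rhox6 (1.25), H19 (1.24) and Wnt7b (1.00) rose as well. The imprinted cell cycle inhibitor Cdkn1c fell by 1.13 in shIno80 cells and by 1.08 in shNT cells. The placental lactogen genes Prl3d1 and Prl3b1 did not pass, with changes of 0.00 and 0.52, and the spongiotrophoblast genes Tpbpa and Tpbpb did not pass the filter.

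Of 28 collagens and other matrix genes measured, 11 rose and 0 fell, with a median of 0.63. Col4a2, a basement membrane collagen, read 2.50 and 2.75 at day 6 and -0.03 and 0.19 at day 4 (2.54 ± 0.44, adjusted p = 0.00693). Its partner Col4a1 rose by 2.25. Col6a1, a microfibrillar collagen, read -3.28 and -2.81 at day 6 and -5.49 and -5.53 at day 4 (2.47 ± 0.21, adjusted p = 0.000391). Bgn, the proteoglycan biglycan, read -2.74 and -2.51 at day 6 and -4.92 and -4.91 at day 4 (2.29 ± 0.39, adjusted p = 0.00624). These 4 genes were separated between the days by far more than the arrays of a day differed. Lox (1.89), Fn1 (1.69), Thbs1 (1.56), Col1a1 (1.52), Loxl1 (1.19), Col1a2 (1.06) and Nid1 (0.69) rose too. The count was 19 in the value table, and 6 without day 6 replicate 2. Fibroblast markers outside this list did not move with it. Of 16 measured, Thy1 rose by 0.55, Vim, the intermediate filament vimentin, fell by 1.03 and the mesoderm factor Meox1 fell by 1.34, and the median was -0.01, which turned positive with the 3 other scalings.

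Targets and parts of the YAP and TEAD pathway, which couples cell contacts and tension to transcription, had 6 of 15 members higher, 0 lower and a median of 0.35. Axl, a receptor tyrosine kinase, read -1.50 and -1.44 at day 6 and -3.58 and -3.57 at day 4 (2.11 ± 0.24, adjusted p = 0.00111). Tead2 rose by 1.24 and Amotl2, an inhibitor of YAP, by 1.09. The most used readouts, Ccn1 and Ccn2, did not pass, with changes of 0.34 and -0.31. The count was 11 in the value table and 3 whichever array was left out. Lysosomal genes also rose, with 11 of 25 higher, 1 lower and a median of 0.32. Hexa, a subunit of the ganglioside-degrading hexosaminidase, changed by 1.02 ± 0.13, Lgmn, the lysosomal protease legumain, by 1.00 ± 0.22 and Atp6v0d1, a subunit of the proton pump, by 0.85 ± 0.18. Gusb, beta-glucuronidase, fell by 0.39, a call that was lost with median scaling and in the value table. The number called higher was 6, 2, 4 and 2 as each of the 4 arrays was left out. In shNT cells 7 lysosomal genes rose and 0 fell, and no lysosomal gene passed the test of the difference.

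In the Wnt pathway 11 of 29 members were higher and 3 lower, with a median of 0.51. Among the ligands, Wnt6 read 3.26 and 3.19 at day 6 and 0.99 and 1.15 at day 4 (2.16 ± 0.28, adjusted p = 0.00205). Wnt7a read -1.33 and -1.17 at day 6 and -3.32 and -3.11 at day 4 (1.97 ± 0.27, adjusted p = 0.00267). Wnt4 (1.94), Wnt10a (1.81), Wnt3 (1.26) and Wnt9a (0.69) rose as well, which made 6 ligands of this list. The ligand Wnt7b, counted above with the placental products, also rose. Dkk1, a secreted inhibitor of the Wnt receptor complex, read -2.50 and -1.64 at day 6 and -5.97 and -5.66 at day 4, where it was not well above background, and was at least 13.4-fold higher (adjusted p = 0.000575). Of the receptors, Fzd5 (1.21), Fzd2 (1.09) and Fzd6 (0.71) rose and Fzd10 fell by 0.60, and Notum, a secreted enzyme that inactivates Wnt ligands, rose by 1.00. The feedback inhibitors Nkd1 and Nkd2 fell by 0.95 and 0.81, and the widely used target genes Axin2 and Lef1 did not pass, with changes of 0.20 and -0.20. The number higher was 11 to 15 with the other scalings and 7 without day 4 replicate 1.

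In the BMP pathway 6 of 17 members rose and 2 fell. Nog, the secreted BMP antagonist noggin, read -0.96 and -0.60 at day 6 and -3.94 and -3.76 at day 4 (3.07 ± 0.23, adjusted p = 0.000225). Its level in shNT cells changed by -0.06 between the same slides, and the difference of changes was 3.12 ± 0.33 (adjusted p = 0.00378). Bmp1, a procollagen protease despite its name, rose by 1.98, and the ligands Bmp8b and Bmp4 by 1.77 and 1.63. The target and inhibitor genes did not move one way: Smad6 rose by 0.89 and Id3 by 0.48, Id1 fell by 1.03, and the antagonist Grem1 was called lower on a probe that was not well above background on either day.

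Of 24 members of the TGF-beta, activin and Nodal group, 11 rose and 3 fell, with a median of 0.68. Lefty2, a Nodal inhibitor and Nodal target, read 0.49 and 0.99 at day 6 and -0.70 and -1.84 at day 4 (2.01 ± 0.41, adjusted p = 0.0118). Inhba and Inhbb, the activin subunits, rose by 1.70 and 1.32. Tgfb3 (1.27), Tgfb1 (1.04), the signal transducer Smad3 (1.29), the activin antagonist Fst (0.88), Ltbp2 (0.86), the receptor Acvr2b (0.50) and the feedback inhibitor Pmepa1 (0.49) rose too. Nodal itself read 2.87 and 3.04 at day 6 and 3.95 and 3.78 at day 4 and fell by 0.91 ± 0.11 (adjusted p = 0.00173), Skil fell by 1.01 and Tgfbi by 0.53. In shNT cells 3 members rose and 3 fell between the same slides. By the test of the difference 4 members were more positive and 0 more negative in shIno80 cells. The fall of Nodal was therefore not shown to differ from shNT cells. Within shIno80 cells, ligands of the activin and TGF-beta branches were higher while the ligand Nodal was lower. The number higher was 11 to 16 with the other scalings and 8, 3, 6 and 5 as day 6 replicate 1, day 6 replicate 2, day 4 replicate 1 and day 4 replicate 2 were left out. Of 20 chemokines and growth factors measured, 5 rose and 2 fell: Csf1, the macrophage growth factor, by 2.39, Cxcl12 by 1.08 and Pdgfb by 1.03 among the rises, while Fgf1 fell by 1.60 and Vegfc by 0.96. With the samples as attached to the scanner files the change of Cxcl12 was -0.09. Each of the 4 arrays, left out in turn, reduced these to 1 rise and 0 or 1 fall. Of 19 immediate early genes, at shares near the 8.67% higher and 15.7% lower of all genes, Ier3 (1.40) and Atf3 (1.21) rose, and Egr2 (-1.76), Spry4 (-1.11) and Egr1 (-0.84) fell, while Fos and Jun did not pass, with changes of 0.05 and 0.03. Without 1 array, 0 or 1 of the 19 rose and 1 or 2 fell. Egr2, Spry4 and Egr1 are among the genes that ERK signalling can induce, and a change in ERK signalling was not tested. By the test of the difference from shNT cells, 0 immediate early genes were more positive and 0 more negative.

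The pluripotency list split into genes that rose and genes that fell. Of 26 measured, 4 rose and 8 fell, with a median of 0.02. Nanog read 0.93 and 1.40 at day 6 and -0.13 and -0.78 at day 4 (1.62 ± 0.30, adjusted p = 0.00882). Esrrb, an orphan nuclear receptor of the naive network, read 2.39 and 2.97 at day 6 and 1.78 and 1.41 at day 4 (1.08 ± 0.23, adjusted p = 0.0137). Klf4 read 3.17 and 3.37 at day 6 and 2.35 and 2.09 at day 4 (1.05 ± 0.16, adjusted p = 0.00418). Tbx3, a T-box factor of the naive state, read 0.69 and 0.99 at day 6 and -0.33 and -0.40 at day 4 (1.20 ± 0.15, adjusted p = 0.00173). Each of these 4 genes had been lower at day 4 than at day 2 in shIno80 cells, by 3.20 for Nanog, 2.95 for Esrrb, 2.95 for Klf4 and 3.63 for Tbx3, so the rise to day 6 made up only a part of the earlier fall. At day 6 the 4 genes were still below shNT cells, by log2 differences of -2.69 for Nanog, -2.50 for Esrrb, -1.95 for Klf4 and -2.33 for Tbx3. In shNT cells Nanog, Esrrb and Tbx3 changed by 0.60, 0.71 and 0.48 between the same slides, none past the threshold. The difference of changes passed for Klf4 (1.18 ± 0.23, adjusted p = 0.0346) and not for Nanog (1.01 ± 0.43, adjusted p = 0.266), Esrrb (0.37 ± 0.32, adjusted p = 0.64) or Tbx3 (0.73 ± 0.21, adjusted p = 0.112).

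The pluripotency genes that fell had a different course. Sox2 read 2.10 and 2.08 at day 6 and 2.80 and 2.64 at day 4 (-0.63 ± 0.11, adjusted p = 0.00679), after a fall of 0.98 from day 2 to day 4. Dppa2, a chromatin protein of ESCs, read 1.18 and 1.38 at day 6 and 2.12 and 2.12 at day 4 (-0.84 ± 0.12, adjusted p = 0.00264). For both genes the day 6 arrays lay below the day 4 arrays (72.9% of all genes had no overlap in either direction). Rif1 (-0.90), Dppa5a (-0.73), Gdf3 (-0.70), Zfp296 (-0.63) and Dppa4 (-0.60) fell as well. Dppa2 and Dppa4, which act as a pair, also passed the test of the difference from shNT cells. Pou5f1, the central factor of the network, read 3.88 and 4.10 at day 6 and 4.18 and 3.84 at day 4, and Zfp42, also called Rex1, read 5.14 and 5.39 at day 6 and 5.16 and 5.09 at day 4. For both genes the arrays of the 2 days overlapped and the test did not pass, with changes of -0.02 ± 0.17 and 0.14 ± 0.14. The counts were 4 to 6 higher and 6 or 7 lower with the other scalings, 2 higher without day 6 replicate 2 or without day 4 replicate 2, and 5 lower without day 6 replicate 2. On replicate 2 alone the list median was 0.26. In the receptor chain for LIF, the cytokine that sustains mouse ESCs, the shared subunit Il6st rose by 0.61 and the specific receptor Lifr fell by 0.81. With no filter on dim probes 0 genes of the LIF and STAT3 list were called higher, so the call of Il6st was lost. It did not pass the test of the difference from shNT cells as a larger rise, as 0 members of the list did.

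**Figure D3:**
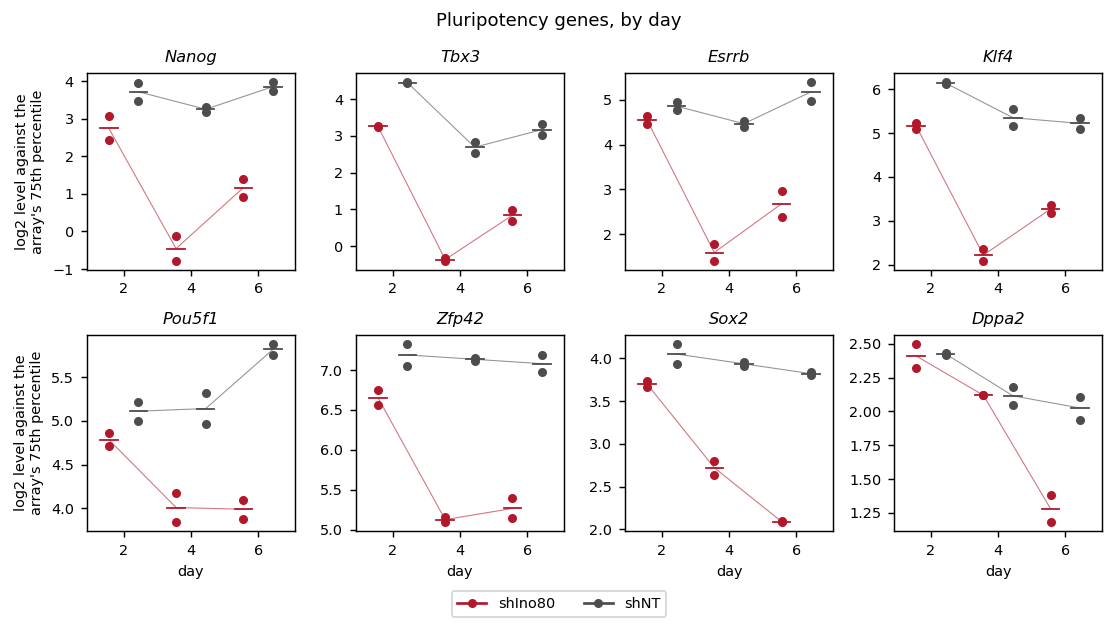
Level of 8 pluripotency genes (log2 against the array's 75th percentile) at days 2, 4 and 6 on each array of shIno80 cells (red, left of each pair) and shNT cells (grey, right), with bars at the group means. Nanog, Tbx3, Esrrb and Klf4 were lowest at day 4 in shIno80 cells and higher at day 6, Pou5f1 and Zfp42 overlapped between days 6 and 4, and Sox2 and Dppa2 were lower at day 6.

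Of 18 endoderm genes 2 rose and 4 fell, shares near those of all genes (8.67% higher and 15.7% lower), and without 1 array 0 to 2 fell. Gata6, the factor that starts primitive endoderm, read -2.84 and -2.27 at day 6 and -4.65 and -4.38 at day 4 (1.96 ± 0.30, adjusted p = 0.00418), and Dab2, an endocytic adaptor of primitive endoderm and trophoblast, rose by 1.45. Gata4 did not pass, with a change of 0.35 ± 0.20, and Sox7 (-1.71), Cubn (-1.48), Afp (-1.34) and Hhex (-0.48) fell. Gata6 and Dab2 were thus the 2 members of this list that rose. Of 17 genes of the primitive streak and early mesoderm, 5 rose and 4 fell. Kdr, the VEGF receptor of blood and vessel precursors, read -2.28 and -2.36 at day 6 and -4.60 and -4.40 at day 4 (2.19 ± 0.27, adjusted p = 0.00173), and Flt1 rose by 1.60. T, the streak factor brachyury, read -4.15 and -3.66 at day 6 and -5.36 and -5.40 at day 4 (1.48 ± 0.25, adjusted p = 0.00586). Foxc2, Isl1 and Mesp1 fell, by 2.46, 1.35 and 1.22. Fgf5, the marker of the primed epiblast, did not pass in shIno80 cells, with a change of -0.37 ± 0.28.

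Of 11 primed epiblast genes, Cldn6 (1.14) and Sox4 (0.83) rose and Nodal fell. Of 16 neural genes, Sox21 (1.25), Pax3 (1.18) and Dlx5 (0.47) rose and Neurod1 fell by 1.51. Another probe of Pax3, used when dim probes were kept, gave a change of -0.52. Of 24 Hox genes measured, which pattern the body axis, 4 rose and 2 fell, and 2 rose and 0 fell whichever array was left out. Hoxd9 read -3.92 and -3.93 at day 6 and -5.97 and -5.95 at day 4, where it was not well above background, and was at least 4.0-fold higher (adjusted p = 6.57e-05), and its cluster neighbour Hoxd8 rose by 1.64 ± 0.18 (adjusted p = 0.00107). Hoxc9 (1.05) and Hoxb13 (0.85) rose too, whereas Hoxd1 and Hoxd13, at the ends of the same HoxD cluster, fell by 1.21 and 0.93. Hoxd8 and Hoxd9 also passed the test of the difference from shNT cells, where they were not well above background on either day.

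Of 21 germ cell and meiosis genes measured, 12 were lower and 1 was higher at day 6, against 15.7% lower among all genes, and the median was -0.64. Stra8, which starts meiosis in response to retinoic acid, read -2.62 and -2.77 at day 6 and -0.33 and -0.28 at day 4 (-2.39 ± 0.18, adjusted p = 0.000221). Hormad1, a protein of the meiotic chromosome axis, read -5.22 and -5.74 at day 6 and -3.42 and -3.54 at day 4 (-2.0 ± 0.17, adjusted p = 0.000416). Tex19.1, a gene of germ cells, ESCs and placenta that restrains retrotransposons, read 2.84 and 2.82 at day 6 and 4.50 and 4.60 at day 4 (-1.72 ± 0.26, adjusted p = 0.00399). All 3 genes were lower on both day 6 arrays than on both day 4 arrays, where 72.9% of all genes had no overlap in either direction. The other genes that fell were Piwil2 (-1.15), Tex101 (-1.06), Tex19.2 (-0.84), Dazl (-0.83), Stk31 (-0.82), Sycp1 (-0.81), Taf7l (-0.77), Sycp3 (-0.64) and Prdm1 (-0.42), and Kit, a receptor of germ cells and many precursors, rose by 1.10. The number lower was 9 to 12 with the other scalings, 6 without day 6 replicate 2, 7 without day 4 replicate 1 and 6 without day 4 replicate 2. On replicate 2 alone the median was -0.86. In shNT cells 7 members fell and 4 rose between the same slides, and the fall was larger in shIno80 cells, by the test of the difference, for Stra8, Hormad1, Piwil2, Sycp3 and Prdm1.

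**Figure D4:**
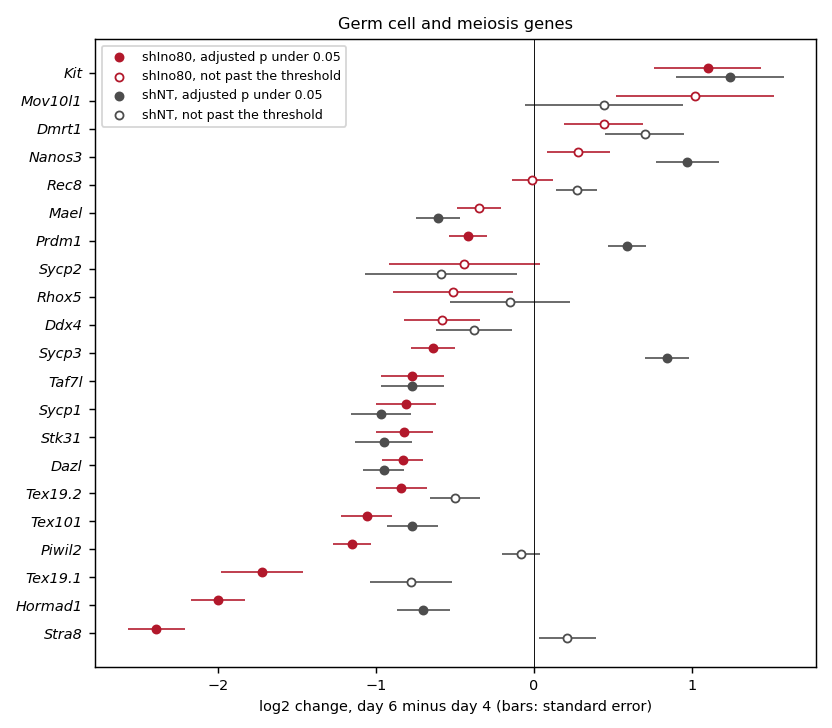
Log2 change between day 6 and day 4 (horizontal axis, bars are standard errors) of the 21 germ cell and meiosis genes measured, in shIno80 cells (red, upper point of each pair) and in shNT cells (grey, lower point). Filled points passed an adjusted p of 0.05. Stra8 changed by -2.39 in shIno80 cells and by 0.21 in shNT cells, and Sycp3 and Prdm1 were lower in shIno80 cells and higher in shNT cells.

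Of 9 genes measured of the 2-cell-like state, a rare ESC state that resembles the early cleavage embryo, 3 fell and 0 rose, with a list median of -1.24. Zscan4c, its best known marker, read 2.22 and 1.92 at day 6 and 4.38 and 4.32 at day 4 (-2.28 ± 0.58, adjusted p = 0.0267), and had been at 2.07 and 0.32 at day 2. Usp17la and Zfp352 fell by 1.78 and 1.24. None of the 3 calls was kept when any of the 4 arrays was left out, while the list median stayed between -1.45 and -1.10. In shNT cells Zscan4c and Zfp352 changed by -1.18 and -1.52, and no member passed the test of the difference. Near-identical copies of Zscan4, Usp17l and Tcstv genes may share signal on such probes.

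Decreases in lists of replication, division, translation and respiration depended on the scaling. Of 30 DNA replication genes 13 were lower and 0 higher, with a median of -0.28, against -0.15 for all genes. In shNT cells 3 were lower and 0 higher between the same slides, with a median of -0.25, and 0 members passed the test of the difference. In shIno80 cells 10 were lower with quantile normalization, 1 with median scaling and 2 in the deposited values. The list median in these settings was -0.14, -0.21 and -0.04, against -0.06, -0.08 and 0.06 for all genes. Without 1 array the count was 4, 1, 1 and 2. Mcm10, a replication initiation factor, read 2.53 and 2.59 at day 6 and 3.67 and 3.49 at day 4 (-1.02 ± 0.13, adjusted p = 0.00173), and Pola1, the catalytic subunit of the primase polymerase, changed by -0.69 ± 0.16. Of 28 mitosis genes 3 were lower and 0 higher, a share below the 15.7% of all genes, namely Aurkb (-0.63), Aurka (-0.49) and Cdc20 (-0.46), and none of them passed with median scaling or in the value table. The list median was -0.14, and -0.07 and 0.09 in these settings. Of 33 genes of the cytosolic ribosome, 6 were lower and 0 higher, a share near the 15.7% of all genes. The count was 2 with each of the other 3 scalings and 1 or 2 without 1 array. Rpl39l, a paralogue of Rpl39 known from testis and ESCs, read -0.95 and -1.40 at day 6 and 1.15 and 1.06 at day 4 (-2.28 ± 0.15, adjusted p = 0.000161), which set it apart from the other 32 members, with changes from -0.76 to 0.15. Of 36 genes of oxidative phosphorylation 9 were lower and 1 higher, with 0 lower in median scaling and in the value table, and 2, 0, 0 and 0 lower as day 6 replicate 1, day 6 replicate 2, day 4 replicate 1 and day 4 replicate 2 were left out. With quantile normalization 5 were lower. Ndufb3 had the largest decrease of this list, by 0.71. In shNT cells 1 member was lower, and 0 members passed the test of the difference.

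Of 26 genes of the p53 response and of cell cycle control, which took in inhibitors and D-type cyclins, 5 rose and 3 fell, with 9 higher and 0 lower in the value table. Without day 6 replicate 2 or day 4 replicate 2, 1 rose and 0 fell, and 3 rose without day 6 replicate 1. Cdkn1a, the p21 inhibitor of cyclin-dependent kinases, read 1.31 and 1.50 at day 6 and 0.76 and 0.50 at day 4 (0.78 ± 0.17, adjusted p = 0.0151). The inhibitor Cdkn2a (0.77) rose too, as did the D-type cyclins Ccnd2 (0.85), Ccnd1 (0.79) and Ccnd3 (0.54), which are not inhibitors. The p53 targets Mdm2, Bax and Ccng1 did not pass, with changes of -0.30, -0.10 and -0.09, and Gdf15, Trp53inp1 and Rb1 fell by 0.83, 0.65 and 0.60. The fall of Rb1 turned to 0.27 when its probes were averaged. Of 23 glycolysis and hypoxia genes 4 rose and 4 fell, and 1 or 2 rose and 1 or 2 fell without 1 array. Slc2a3, a high-affinity glucose transporter, read 6.34 and 6.43 at day 6 and 4.31 and 4.10 at day 4 (2.18 ± 0.18, adjusted p = 0.000367), the angiogenic factor Vegfa rose by 1.63, and Hk2, a hexokinase, fell by 0.91. Vegfa rose by 1.56 in shNT cells between the same slides. Of 23 genes of cholesterol synthesis 2 were higher and 2 lower, and of 23 of the stress response 3 were higher and 1 was lower. Among all genes 8.67% were higher and 15.7% lower. Among them Nsdhl (0.67) and Mvk (0.63) rose and Idi1 (-0.52) and Dhcr7 (-0.46) fell, and Xbp1 (0.60), Phgdh (0.60) and Edem1 (0.45) rose and Trib3 (-0.72) fell. The sign for Dhcr7 turned when its probes were averaged, to 0.02.

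Interferon-induced genes changed in both directions in both hairpin groups. In shNT cells 7 of 27 were higher and 2 lower between the same slides, with a median of 0.07. In shIno80 cells 7 of 27 were higher and 4 lower, with a median of 0.05. The share lower was near the 15.7% of all genes, of which 8.67% were higher. Without day 6 replicate 2 there were 4 higher and 1 lower, and without day 4 replicate 2 there were 3 higher and 1 lower. Gbp2, an interferon-induced GTPase, read 2.19 and 2.24 at day 6 and -0.03 and -0.26 at day 4 (2.36 ± 0.31, adjusted p = 0.00215), but rose by 2.50 in shNT cells too. Usp18, Ifit2 and Ddx58 rose in shIno80 cells by 1.73, 1.16 and 0.77 and differed from shNT cells, where they changed by -0.49, -0.49 and -0.64. Oas2 and Mx1 were lower at day 6, at least 3.8-fold and 1.15-fold, on arrays that were not well above background. Of 15 genes measured in the list of the INO80 complex, at shares near those of all genes, Ino80b rose by 0.78. Actr6 (-0.54), which is not an INO80 subunit, Ruvbl1 (-0.50) and Actr5 (-0.44) fell. Those 3 falls were lost with median scaling and in the value table, and the call of Ino80b was lost with no filter on dim probes. Dnmt3l, a cofactor of the de novo DNA methyltransferases, read 5.25 and 5.30 at day 6 and 6.50 and 6.43 at day 4 (-1.19 ± 0.09, adjusted p = 0.000193), and of the Polycomb proteins Mtf2 (-0.86) and Suz12 (-0.61) fell and Pcgf2 (1.23) rose. Dnmt3l fell by 0.95 in shNT cells as well. With no filter on dim probes 0 genes of the list of DNA methylation and Polycomb genes were called higher, so the call of Pcgf2 was lost. In this list and that of the INO80 complex, 0 members passed the test of the difference. Markers of blood, macrophages and endothelium were checked as other cells a culture could hold. Of 20 such genes 13 passed the filter, with 2 higher, 4 lower and a median of -0.34. The highest change in this list was 2.19, the value given above for Kdr. With each of the 4 arrays left out in turn, 1 gene was higher and 1 or 2 were lower. Ptprc, the leukocyte antigen CD45, read -7.76 and -7.50 at day 6, where it was not well above background, and -5.28 and -5.28 at day 4, and was at least 1.49-fold lower. The defining genes Adgre1, Spi1, Cdh5 and Emcn did not pass the filter.

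Between the same 2 slides, shNT cells had 1487 genes higher and 1733 lower at day 6, 16.8% of the genes tested. Among the 4671 genes called in shIno80 cells, 1448 were also called in shNT cells in the same direction and 103 in the opposite direction. The difference of both changes, in which an additive slide effect cancels, passed for 717 genes (3.74%), of which 317 (1.65%) were more positive and 400 (2.09%) more negative in shIno80 cells. Of the 4671 genes called in shIno80 cells, 544 also passed this test, 266 of them as rises larger than in shNT cells and 274 as falls larger than in shNT cells. For the remaining calls in shIno80 cells the change was not shown to differ from that in shNT cells, and the part of the slide in them cannot be told apart from that of the day. All 103 genes with opposite directions passed the test of the difference, 44 of them higher in shIno80 cells and lower in shNT cells and 59 the other way round.

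Among genes well above background on all 8 shIno80 and shNT arrays of both days, Ddn and Wnt6 had large positive differences. Wnt6, whose day 6 arrays read 3.26 and 3.19 in shIno80 cells, read -1.94 and -2.20 at day 6 and -0.54 and -0.07 at day 4 in shNT cells, so that its change was 2.16 in shIno80 cells and -1.77 in shNT cells, with a difference of 3.93 ± 0.40 (adjusted p = 0.00298). Wnt10a, a neighbour of Wnt6 in the genome, changed by 1.81 and -1.32 in the same way. Ddn had a difference of 4.32 ± 0.27 (adjusted p = 0.00101). Gata6 (2.43 ± 0.43, adjusted p = 0.0243) and Kdr (2.80 ± 0.38, adjusted p = 0.01) also differed, with changes of -0.47 and -0.61 in shNT cells. The test also passed for Vnn1 (adjusted p = 0.00502), Dkk1 (adjusted p = 0.00692), Fgd3, a guanine nucleotide exchange factor (adjusted p = 0.0265), Olfr551 (adjusted p = 0.0367), Olr1 (adjusted p = 0.0464) and Dlx2, a homeobox factor of forebrain and neural crest (adjusted p = 0.0491). The first 5 of these were not well above background on either shIno80 day 4 array, and Dlx2 was not on either shNT day 6 array, so their differences have no exact size.

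Negative differences of probes near background rested on few detected arrays. Olfr798, Trav7d-6, Ugt2b38, Cfap221 and Gdap1 passed the test of the difference and were well above background on both shNT day 6 arrays and on neither shNT day 4 array. In shIno80 cells none of these 5 passed or was well above background on both arrays of a day. Pappa2 (adjusted p = 0.00245), Il1rl1, the receptor for interleukin 33 (adjusted p = 0.0376), and Fitm1, a protein of lipid droplet formation (adjusted p = 0.0201), were well above background on both day 4 arrays and on neither day 6 array in shIno80 cells and did not pass in shNT cells. For these 8 genes the difference has no exact size. At higher signal, Stra8 had a difference of -2.60 ± 0.25 (adjusted p = 0.00283), Nkd2 of -1.84 ± 0.22 (adjusted p = 0.00567) and Gdf15, a stress-induced cytokine, of -1.56 ± 0.20 (adjusted p = 0.00864). Nkd2 and Gdf15 fell by 0.81 and 0.83 in shIno80 cells and rose by 1.04 and 0.74 in shNT cells.

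**Figure D5:**
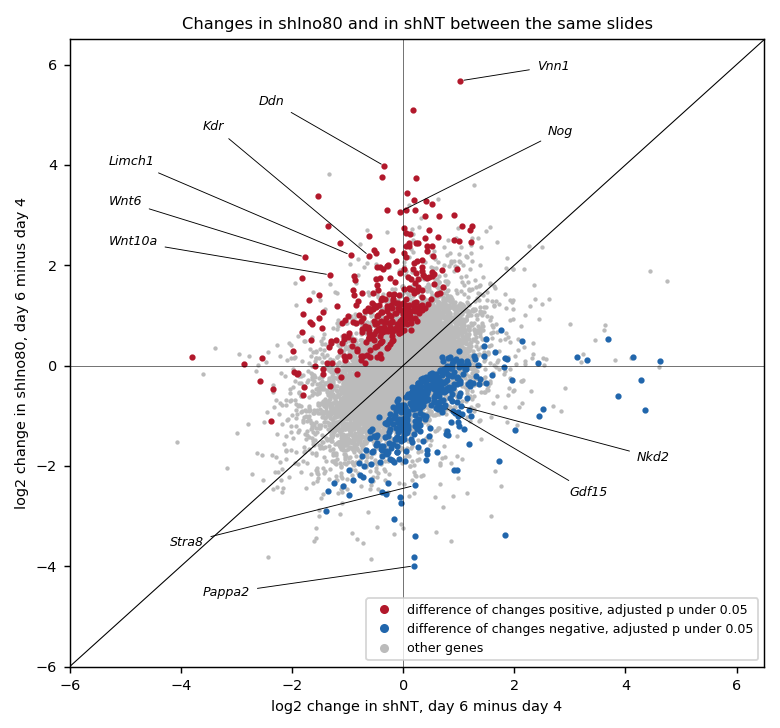
Log2 change between day 6 and day 4 of each of the 19183 genes in shIno80 cells (vertical axis) and in shNT cells (horizontal axis); the diagonal marks equal changes. Red and blue points are the 317 and 400 genes whose difference of changes passed an adjusted p of 0.05 in the positive and the negative direction, and 11 genes named in the text are labelled. Wnt6, Wnt10a and Limch1 lie above 0 in shIno80 cells and below 0 in shNT cells, and Nkd2 and Gdf15 the other way round.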

How the data were processed

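RNA of the 12 samples was hybridised to 1-colour Agilent mouse arrays, 1 array per sample. Per the file headers, Agilent Feature Extraction made the deposited intensity values, with background subtraction, detrending and surrogates for low spots; the flags in the other columns are 0 or 1. The deposited value table holds log2 values, which equal the mean spot intensity times 1 factor per array without background subtraction; the basis of the factors is not stated by the labels or headers. Of 41174 probes, 125 were left out for outlier flags, and 28654 passed the filter on dim probes, which asked for a signal well above background on each of the 2 arrays in some group. Probe names came from accessions matched to RefSeq (22944), current symbols (6664), older symbols (3108) or the array files (8458). Each gene was read from its brightest kept probe.

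Log2 processed intensity minus log2 of the array's 75th percentile was fitted with limma 3.58.1 in R 4.3.3, with 1 mean for each of 6 groups on all 12 arrays (6 residual degrees of freedom), two-sided, and the threshold was a Benjamini-Hochberg adjusted p of 0.05. An "at least" fold compares the bright group's mean with the higher of the dim probe's own signal and the lowest signal well above background on each array. In simulated data for the shIno80 comparison over 19183 genes, 67, 67 and 66 genes were changed by 0.5, 1 and 2 on the log2 scale. Of these, 13.4%, 64.2% and 71.2% were recovered, with 7 false calls among the unchanged genes. The share of genes changed there was far below the 24.3% called in the data. Recovery under the adjustment depends on this share, so these rates do not carry over to the real comparison. The number of arrays limits the precision.

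The members and gene lists were chosen with earlier results of these data known. Named genes were a fixed set of lineage and pluripotency genes, the 12 largest rises and falls among genes with a gene name (clone, RIKEN and accession names left out) and a probe well above background on both arrays of the brighter group, up to 3 rises and 3 falls per list and the 8 largest fitted differences in each direction by the same conditions. Further members are named to account for a list's calls, and Wnt10a, Ltbp2, Fst, Ifit2 and Ddx58 were picked after their values were seen. A few list members are counted in the lists but not reported here by name. The alternatives covered scaling, background correction, the filter, the probe rule, the arrays in the fit, the record that ties arrays to samples, the replicate block and each array left out. The replicate numbers were not taken to pair the samples: over all pairs of groups the deviations of same-numbered arrays correlated at -0.17 to 0.30, with -0.06 between shIno80 days 6 and 4 and 0.05 between shNT days 6 and 4.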

Additional observations from a re-analysis of the deposited data

Results flagged for a closer look

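For 11 named genes the change between day 6 and day 4 passed the threshold in both hairpin groups with opposite signs, and the difference of both changes passed too. The difference, shIno80 minus shNT, was 3.93 for Wnt6 (2.16 in shIno80 cells and -1.77 in shNT cells), 3.15 for Limch1 (2.20 and -0.95), 3.12 for Wnt10a (1.81 and -1.32), 1.70 for Ltbp2 (0.86 and -0.85), 1.66 for Ifit2 (1.16 and -0.49), 1.64 for Fst (0.88 and -0.76) and 1.40 for Ddx58 (0.77 and -0.64). These 7 genes were higher in shIno80 cells and lower in shNT cells. The difference was -1.84 for Nkd2 (-0.81 in shIno80 cells and 1.04 in shNT cells), -1.56 for Gdf15 (-0.83 and 0.74), -1.48 for Sycp3 (-0.64 and 0.84) and -1.01 for Prdm1 (-0.42 and 0.59). These 4 genes were lower in shIno80 cells and higher in shNT cells. With 2 arrays per group, no test of single outlying samples was made.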

How the results depend on the processing

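For shIno80 day 6 minus day 4 there were 3454 higher and 1324 lower in the value table, 1619 lower with median scaling, 1102 and 1751 with no filter on dim probes, 26 and 6 with normexp on the local background (2198 at an unadjusted p under 0.05), 4730 lower with normexp against the array's median background, an alternative chosen after seeing the data, and 3 and 19 with the samples as attached to the scanner files. Leaving out 1 shIno80 array gave 565 to 972 higher and 629 to 1704 lower. For shNT day 6 minus day 4 there were 731 higher and 798 lower with no filter, 1075 lower with median scaling, 3026 lower with the 8 arrays of days 4 and 6, 0 and 0 with normexp (1598 unadjusted), 0 and 0 with only the 4 arrays compared (7135 unadjusted), 0 and 1 with the samples as attached, and 70 to 674 higher and 69 to 752 lower without 1 array. For the difference of changes there were 834 and 249 in the value table, 235 lower with median scaling, 124 and 127 with no filter, 0 and 0 with normexp (562 unadjusted), 506 and 622 with normexp against the median background, 0 and 0 as attached (363 unadjusted), and 101 to 205 higher and 100 to 340 lower without 1 array. With the replicate number as a block, which the arrays do not bear out as a pairing, shIno80 cells had 1480 higher and 2581 lower, shNT cells 1206 and 1377, and the difference 214 and 258. The cause of these moves was not tested; fewer arrays leave fewer degrees of freedom.

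Of 233 called genes named for shIno80 cells, 12 changed sign in some alternative. With the samples as attached to the scanner files, the change in shIno80 cells was -0.09 for Cxcl12, -0.06 for Hoxb13, -0.22 for Ltbp2, -0.09 for Nid1, 0.08 for Nkd2, 0.18 for Prdm1, 0.02 for Sycp3, -0.02 for Wnt10a and -0.04 for Wnt6, and, among genes that had not passed, -0.14 for Actn4, -0.53 for Axin2, -0.01 for Cdh1, -0.17 for Dlx2, 0.19 for Fgf5, -0.08 for Flna, -0.54 for Fos, -0.48 for Jun, -0.07 for Myl6, 0.59 for Pou5f1, -0.11 for Prl3d1 and -0.10 for Srf. The difference of changes as attached was -0.22 for Ddn, -0.26 for Dlx2, -0.41 for Kdr, 0.04 for Stra8, -0.14 for Vnn1, -0.54 for Wnt10a and -0.48 for Wnt6. With probes averaged, Dhcr7 was at 0.02, Rb1 at 0.27, Synpo2l at 0.02 and the difference for Tbx3 at -0.23. Pax3 was at -0.52 with no filter. In the value table Bax and Ccng1 were at 0.14, Ino80 at 0.18, Myl9 at 0.17, Pou5f1 at 0.24 and Synpo2l at 0.00; with median scaling Ino80 was at 0.06, Myl9 at 0.02 and Pou5f1 at 0.05; with quantile normalization Bax was at 0.03, Ccng1 and Myl9 at 0.15 and Pou5f1 at 0.17. With normexp Cdh1 was at -0.00, Gata4 at -0.03, Prl3d1 at -0.04 and Srf at -0.01, and the differences for Fitm1, Gdap1, Il1rl1 and Ugt2b38 were 0.17, 0.46, 0.30 and 0.24; against the median background Gata4 was at -0.09, Pou5f1 at 0.01 and Prl3d1 at -0.12. Without 1 array, genes with changes near 0 also turned: Fos to -0.09, Ino80 to 0.10 and 0.20, Jun to -0.08 and -0.13, Myl6 to -0.01, Pou5f1 to 0.09 and 0.15 (lowest -0.19), Prl3d1 to -0.25 and -0.00 (highest 0.26), and Srf to -0.03 and -0.00. Probes not well above background bound a level from one side only.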
